A study of Homo sapiens with 24 samples.

Results

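The long noncoding RNAs described here are 7 genes known from prostate cancer or from cancer in general: PCA3, PCGEM1, PCAT1, DRAIC, MALAT1, NEAT1 and GAS5. They were chosen by symbol, not by their values, from 22227 genes listed in the tables of a ligand experiment and 23028 genes in the tables of an siRNA experiment. Both experiments used LNCaP, an androgen-sensitive line of human prostate adenocarcinoma cells, and both measured poly(A) RNA by sequencing. In the ligand experiment the cells were kept in hormone-depleted medium (charcoal-stripped serum) and given vehicle, 10 nM of the androgen dihydrotestosterone (DHT) or 10 µM of the antiandrogen enzalutamide, for 4 or 24 h, with 2 replicates per condition. Vehicle has 4 samples by label, numbered as separate replicates, and these are counted here as 2 for a reason given below. The vehicle libraries carry no time in their labels and serve as controls at both times. In the siRNA experiment the cells received a non-targeting siRNA pool (siControl) or a pool against GATA2 (siGATA2), a zinc-finger transcription factor, and, starting 72 h after transfection, a day (24 h) of vehicle or of enzalutamide at 25 µM, with 3 replicates in each of the 4 conditions. A lowering of GATA2 by an siRNA pool is partial, and all groups are a single cell line. Symbols were found in every table except for PCA3, which the vehicle table of the ligand experiment does not list. That table holds no gene at 0 in every column, and PCA3 was set to 0 there.

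A long noncoding RNA is a transcript that is spliced or processed like a messenger RNA but is not known to be translated into a stable protein. PCA3, PCGEM1, PCAT1 and DRAIC are known for expression in prostate epithelium or prostate tumours, and PCA3 is measured in urine as a marker of prostate cancer. PCGEM1 and PCAT1 have been linked to growth of prostate cancer cells, and DRAIC is named for its lower level in advanced cancers. MALAT1 and NEAT1 are abundant nuclear RNAs of nearly all cells: MALAT1 gathers in nuclear speckles, where splicing factors are stored, and NEAT1 is the scaffold of paraspeckles, nuclear bodies of RNA-binding proteins. GAS5 is a host gene: its introns carry small nucleolar RNAs (snoRNAs), and its spliced RNA accumulates when growth is arrested and can bind the glucocorticoid receptor.

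Libraries of the ligand experiment held 38894876 to 59985287 estimated counts, and those of the siRNA experiment differed in relative number of mapped reads between 0.8355 and 1.0913. The vehicle table has 4 columns, of which 3 are headed as the same replicate and differed from each other by 1.529 to 1.562 (mean chi-square per gene) against 3.555 to 3.739 from the other, so they were summed and counted as 1 sample. The column headings also carry 1 of 3 set prefixes, and time and set cannot be told apart for either ligand, since no library of 4 h has the prefix of a library of 24 h with the same ligand. Both DHT libraries of 4 h also differ in prefix from both enzalutamide libraries of 4 h, so that ligand and set cannot be told apart at 4 h. All 8 luminal prostate markers were expressed (the luminal keratin KRT8 between 320 and 462 counts scaled to library size, CPM). The 12 markers of other cells summed to 36.2 to 43.9 CPM over all ligand libraries, and 5 of them passed the filter on low counts. At 24 h of DHT all 5 passed the edgeR test (CD68 0.97 and VWF 0.4 up, COL1A1 -0.65 and LUM -1.18 down, on the log2 scale, and KRT14 from 0.0336 to 0.369 CPM). The mean of KRT14 was 0.0374 CPM or less in every other condition. It thus entered the test through 24 h of DHT, and its call is no support for a rise. At 24 h of enzalutamide VWF (-0.87) and LUM (-0.94) fell. Of all genes tested 50.0% passed at 24 h of DHT and 33.4% at 24 h of enzalutamide. The part of these markers in the members' changes was not tested. DHT raised all 5 androgen reference genes, among them KLK3, KLK2, TMPRSS2 and FKBP5, at both times and enzalutamide lowered 4 of them at 4 h and 5 at 24 h. In siGATA2 cells GATA2 was at 51.4 ± 4.22 RPKM (reads scaled to gene length and library size, mean ± SD, n = 3) in vehicle, 62.5% of the 82.3 ± 4.72 RPKM in siControl cells (limma adjusted p = 3.12e-06). With enzalutamide it was at 62.1 ± 2.37 RPKM, 48.1% of the 129 ± 1.97 RPKM in siControl cells (limma adjusted p = 1.07e-07). GATA2 RNA remained in every condition.

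Per length, GAS5 and MALAT1 were the most abundant of the 7 RNAs in siControl cells with vehicle. GAS5 was at 121 ± 7.25 RPKM and MALAT1 at 105 ± 32.2 RPKM (SD, n = 3), and their ranges overlapped. NEAT1 followed at 11.4 ± 1.65 RPKM, PCAT1 at 6.8 ± 0.226 RPKM and DRAIC at 3.83 ± 0.0641 RPKM. PCGEM1, at 0.377 ± 0.111 RPKM, and PCA3, at 0.00145 ± 0.0025 RPKM, were the lowest. From NEAT1 down, the ranges of neighbours in this order did not overlap. PCA3 rested on 1 read in 3 libraries, the limit of what these libraries detect. The mature end of MALAT1 and the long form of NEAT1 are known to lack an ordinary poly(A) tail, and the values of both describe what poly(A) selection captured. In the bulk samples used here, fewer cells that express an RNA and less RNA per cell cannot be told apart.

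In the GRCh38 annotation of GENCODE the genes lie at chr9:76691980-76863307 (PCA3, plus strand), chr2:192749845-192776899 (PCGEM1, plus strand), chr8:126556323-127419050 (PCAT1, plus strand), chr15:69463026-69843120 (DRAIC, plus strand), chr11:65497688-65506516 (MALAT1, plus strand), chr11:65422774-65445540 (NEAT1, plus strand) and chr1:173863900-173868882 (GAS5, minus strand). PCA3 is annotated as antisense, within the gene of PRUNE2 on the other strand, and MALAT1 is covered on the other strand by TALAM1. The study's reads were aligned to hg19, so these positions are those of the annotation and not of the alignments.

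PCAT1 was lower with enzalutamide at both times and, after 24 h, higher with DHT. Its level was 8.94 and 9.22 CPM in the vehicle libraries, 6.0 and 5.25 CPM after 4 h of enzalutamide, and 5.13 and 5.57 CPM after 24 h. With DHT it was 7.15 and 7.34 CPM at 4 h and 14.8 and 14.2 CPM at 24 h. Every enzalutamide library and every 4 h DHT library was below both vehicle libraries, and both 24 h DHT libraries were above them. PCAT1 fell with enzalutamide to 0.62 times vehicle at 4 h (log2 change -0.69, SE 0.0884, edgeR adjusted p = 0.000283) and to 0.589 times at 24 h (-0.76, SE 0.0878, edgeR adjusted p = 2.24e-05). With DHT it fell at 4 h (-0.32, SE 0.0838, edgeR adjusted p = 0.0344) and rose at 24 h to 1.6 times vehicle (0.68, SE 0.0794, edgeR adjusted p = 1.14e-05). These comparisons share the vehicle libraries. The contrast of DHT with enzalutamide at 24 h, which does not use them, gave a 2.71-fold higher level with DHT (log2 1.44, SE 0.0844, edgeR adjusted p = 6.06e-09), and DHT at 24 h was 2.0 times DHT at 4 h (log2 1.0, edgeR adjusted p = 4.12e-07), in libraries of different header sets. Against the vehicle replicate 1 column of the same set PCAT1 was at 0.794 and 0.818 at 4 h and at 1.49 and 1.62 at 24 h of DHT. This fall at 4 h did not pass with DESeq2 (adjusted p = 0.154), with the replicate number as a block (0.0556) and without any 1 of 8 libraries, among them both of DHT at 4 h (0.16 and 0.235).

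**Figure D1:**
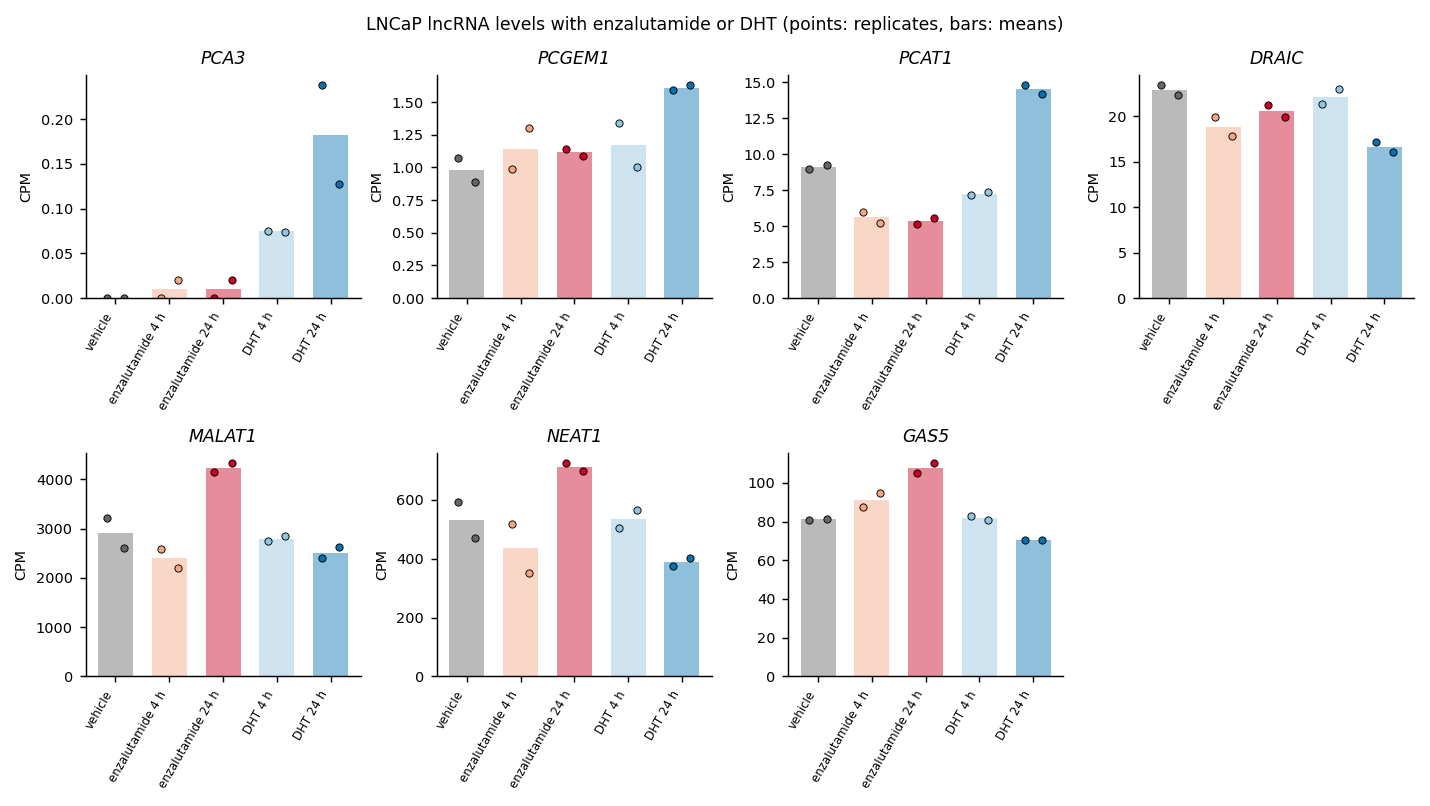
Level of each lncRNA in CPM (vertical axes, starting at 0, a scale for each gene) in the 2 replicates (points) of each ligand condition, with the mean as a bar. PCAT1 is lowest with enzalutamide and highest after 24 h of DHT (14.2 and 14.8 CPM), whereas MALAT1, NEAT1 and GAS5 are highest after 24 h of enzalutamide.

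PCGEM1 was low, at 1.07 and 0.889 CPM with vehicle, and reached 1.59 and 1.63 CPM after 24 h of DHT, above all other libraries. It was at 0.988 and 1.3 CPM after 4 h and 1.14 and 1.09 CPM after 24 h of enzalutamide, and at 1.34 and 1.0 CPM after 4 h of DHT, where only the 24 h enzalutamide libraries did not overlap with vehicle. PCGEM1 rose 1.64-fold with 24 h of DHT (log2 0.69, SE 0.207, edgeR adjusted p = 0.0134). No rise was shown with enzalutamide at 24 h (log2 0.17, 95% interval -0.26 to 0.59). The DHT call was lost without vehicle replicate 2 (adjusted p = 0.0723), without DHT 24 h replicate 1 (0.0523) and with DESeq2 (0.0781).

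PCA3 was at the edge of detection and was higher with DHT. The 2 vehicle replicates held 0 counts each, the enzalutamide replicates 0 and 1 at 4 h and 0 and 1 at 24 h. The DHT replicates held 4 and 4 counts at 4 h and 13 and 5 at 24 h, so every DHT library was above every other one. Summed per group this was 0.0748 CPM at 4 h and 0.186 CPM at 24 h of DHT. Against the 3 counts that a group total of 0 allows (0.0303 CPM in vehicle), the observed level was 2.47-fold higher at 4 h and 6.13-fold higher at 24 h. These 2 ratios are not lower limits, since they leave out the counting error of the DHT counts, and PCA3 was set to 0 in vehicle. The ratio of 24 h DHT to 24 h enzalutamide was 18.4 (exact 95% interval of the counts 2.91 to 768), and that at 4 h was 6.84 (0.917 to 303). These intervals cover counting error only. PCA3 did not pass the filter on low counts in the main fit and has no test there. PRUNE2, the gene on the opposite strand, was at 489 to 674 CPM and was called in none of the 8 ligand comparisons. The library kit keeps the strand, but whether the counting used it is not given in the sources used here, so reads of the overlapping gene cannot be told apart from those of PCA3.

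DRAIC was lower after 24 h of DHT and changed less with enzalutamide. The vehicle libraries held 23.4 and 22.3 CPM, those with 24 h of DHT 17.2 and 16.0 CPM and those with 4 h of DHT 21.3 and 23.0 CPM. With enzalutamide DRAIC was at 19.9 and 17.8 CPM at 4 h and at 21.2 and 19.9 CPM at 24 h. All enzalutamide and 24 h DHT libraries lay below vehicle, and the lowest were those of 24 h of DHT. DRAIC fell with 24 h of DHT to 0.728 times vehicle (log2 -0.46, SE 0.0719, edgeR adjusted p = 0.00015) and with 4 h of enzalutamide to 0.824 times (log2 -0.28, SE 0.0711, edgeR adjusted p = 0.0195). The difference at 24 h of enzalutamide did not pass (log2 -0.16, 95% interval -0.29 to -0.02, edgeR adjusted p = 0.106). The 4 h call was lost in a fit of only the 2 groups, without vehicle replicate 1 and without enzalutamide 4 h replicate 2. Leaving out any 1 library gave log2 values of -0.37 to -0.21.

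GAS5 was higher with enzalutamide and, after 24 h, lower with DHT. It was at 81.0 and 81.2 CPM with vehicle, 87.6 and 94.9 CPM after 4 h of enzalutamide and 105 and 110 CPM after 24 h. With DHT it was at 82.8 and 80.7 CPM at 4 h and at 70.6 and 70.5 CPM at 24 h. Both 24 h groups lay apart from vehicle, enzalutamide above it and DHT below. GAS5 rose 1.32-fold with 24 h of enzalutamide (log2 0.4, SE 0.0442, edgeR adjusted p = 1.43e-05) and fell to 0.869 times vehicle with 24 h of DHT (log2 -0.2, SE 0.0452, edgeR adjusted p = 0.00227). At 4 h of enzalutamide the rise was 1.13-fold (log2 0.17, edgeR adjusted p = 0.0236), and at 4 h of DHT the log2 difference was 0.01 (95% interval -0.08 to 0.1). Directly compared at 24 h, DHT was at 0.658 times enzalutamide (log2 -0.6, edgeR adjusted p = 6.43e-08). The 4 h rise was lost without any 1 of 3 libraries (either vehicle replicate or enzalutamide replicate 2; adjusted p between 0.0983 and 0.199) and in a fit of only the 2 groups (0.128).

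MALAT1 and NEAT1, neighbours on chromosome 11, were both highest after 24 h of enzalutamide. MALAT1 was at 3220 and 2600 CPM with vehicle, 2590 and 2200 CPM after 4 h of enzalutamide, 4140 and 4320 CPM after 24 h of enzalutamide, 2740 and 2850 CPM after 4 h of DHT and 2400 and 2620 CPM after 24 h of DHT. NEAT1 was at 592 and 472 CPM, 517 and 353 CPM, 724 and 699 CPM, 505 and 567 CPM, and 376 and 403 CPM in the same order. The 24 h enzalutamide libraries of both RNAs lay above all others. The vehicle replicates of both were far apart, and for MALAT1 vehicle replicate 2 lay within the range of 24 h of DHT.

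MALAT1 rose 1.45-fold with 24 h of enzalutamide (log2 0.54, SE 0.085, edgeR adjusted p = 0.000331) and NEAT1 1.34-fold (log2 0.42, SE 0.134, edgeR adjusted p = 0.0292). At 4 h both were on the other side of vehicle: MALAT1 fell to 0.822 times (log2 -0.28, edgeR adjusted p = 0.0427), and NEAT1 did not pass (log2 -0.29, 95% interval -0.56 to -0.03, edgeR adjusted p = 0.182). From 4 h to 24 h of enzalutamide MALAT1 rose 1.77-fold (edgeR adjusted p = 1.19e-05) and NEAT1 1.64-fold (0.00197), in libraries whose header sets differ in the same way as the times. Against the vehicle replicate 1 column of their own header set, MALAT1 was at 0.794 and 0.67 at 4 h and at 1.3 and 1.35 at 24 h, and NEAT1 at 0.874 and 0.592 and at 1.24 and 1.2. Vehicle replicate 1 was the higher of the 2 for MALAT1 (3220 against 2600 CPM) and for NEAT1 (592 against 472 CPM), which lowers these ratios. With 24 h of DHT NEAT1 fell to 0.733 times vehicle (log2 -0.45, SE 0.135, edgeR adjusted p = 0.014) and MALAT1 to 0.861 times (log2 -0.22, edgeR adjusted p = 0.0499), the latter at the threshold and with overlapping groups. Compared with 24 h of enzalutamide, 24 h of DHT was at 0.593 times for MALAT1 (log2 -0.75, SE 0.0853, edgeR adjusted p = 4.27e-06) and at 0.548 times for NEAT1 (log2 -0.87, SE 0.135, edgeR adjusted p = 8.24e-05).

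Several of these calls rest on the vehicle libraries. Without vehicle replicate 2 the rise of NEAT1 with 24 h of enzalutamide was 0.26 on the log2 scale (edgeR adjusted p = 0.264), and it was also lost without either enzalutamide 24 h replicate (0.133 and 0.0955) and with DESeq2 (0.137). Without vehicle replicate 1 the fall of NEAT1 with 24 h of DHT was -0.28 (0.177), that of MALAT1 was -0.05 (0.626), and the fall of MALAT1 at 4 h of enzalutamide was -0.13 (0.35). The falls with DHT were lost too without DHT 24 h replicate 1 (0.0862 for NEAT1 and 0.257 for MALAT1) and with DESeq2 (0.0729 and 0.188), and that of MALAT1 at 4 h of enzalutamide without enzalutamide 4 h replicate 2 (0.235) and with DESeq2 (0.118). Both calls of MALAT1 were also lost, at adjusted p of 0.0531 to 0.0639, without 4 libraries of other conditions each (both enzalutamide 24 h and both DHT 4 h replicates). The rise of MALAT1 with 24 h of enzalutamide passed without any 1 of the 10 libraries, at 0.38 to 0.69.

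Of the 6 members tested, 4 passed at 4 h of enzalutamide (13.6% of all 15555 genes tested passed), 4 at 24 h of enzalutamide (33.4%), 1 at 4 h of DHT (6.77%) and 6 at 24 h of DHT (50.0%). At 4 h of enzalutamide GAS5 rose (6.94% of all genes rose) and PCAT1, DRAIC and MALAT1 fell (6.68% fell). At 24 h of enzalutamide GAS5, MALAT1 and NEAT1 rose (16.4%) and PCAT1 fell (17.0%). At 4 h of DHT PCAT1 fell (2.11%) and 0 members rose (4.66%). PCAT1 and PCGEM1 rose at 24 h of DHT (26.9%), and DRAIC, GAS5, MALAT1 and NEAT1 fell (23.2%). At 24 h of DHT so many genes passed that a count of 6 is not a result about these RNAs. The median log2 change of the 6 was -0.28 after 4 h and 0.28 after 24 h of enzalutamide, where that of all genes was 0.0015 and 0.0148. For DHT it was -0.02 after 4 h and -0.21 after 24 h, where that of all genes was -0.0085 and 0.0013. Over 17 settings the median at 24 h of DHT went from -0.26 to -0.05 and that at 4 h of enzalutamide from -0.37 to -0.05. In settings where PCA3 passed the filter or no filter was used, it is part of these medians.

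From 4 h to 24 h of enzalutamide GAS5, MALAT1 and NEAT1 rose, and 24.6% of all genes passed (11.7% rose, 12.9% fell). Between the same times of DHT PCAT1 rose, DRAIC, GAS5 and NEAT1 fell, and 49.8% of all genes passed (26.3% rose, 23.5% fell). DHT against enzalutamide at 4 h, where the header sets differ as the ligands do, gave 3 members, PCAT1 and DRAIC higher and GAS5 lower with DHT, where 15.8% of all genes passed (8.49% higher, 7.28% lower). At 24 h it gave all 6 tested, PCAT1 and PCGEM1 higher and the other 4 lower with DHT, where 64.9% of all genes passed (31.3% higher, 33.6% lower).

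**Figure D2:**
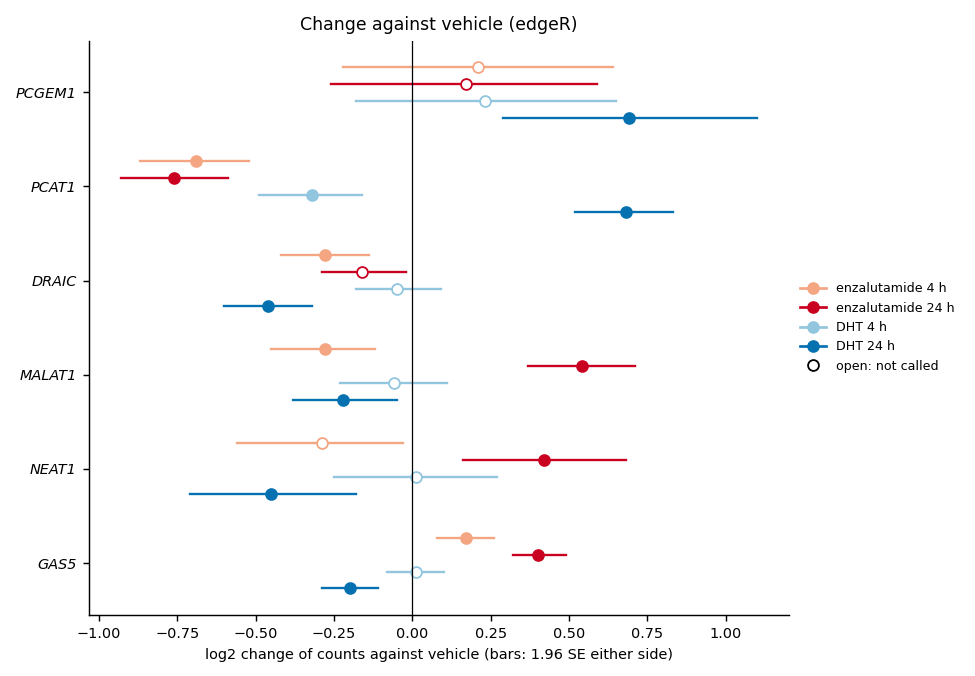
Log2 change of counts against vehicle (horizontal axis) of the 6 tested lncRNAs in the 4 ligand comparisons, with 95% intervals; filled points passed at an edgeR adjusted p under 0.05. PCAT1 lies at -0.76 with 24 h of enzalutamide and at 0.68 with 24 h of DHT, whereas MALAT1, NEAT1 and GAS5 lie above 0 with 24 h of enzalutamide and below 0 with 24 h of DHT.

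In siControl cells 24 h of 25 µM enzalutamide again lowered PCAT1 and raised GAS5 and NEAT1. PCAT1 was at 6.72, 7.06 and 6.63 RPKM with vehicle and at 2.25, 1.85 and 2.04 RPKM with enzalutamide, with no overlap. It fell to 0.301 times vehicle (log2 -1.69, SE 0.0899, limma adjusted p = 2.94e-07). GAS5 was at 130, 117 and 117 RPKM with vehicle and at 189, 196 and 176 RPKM with enzalutamide. All 3 enzalutamide libraries lay above all 3 with vehicle, a 1.54-fold rise (log2 0.62, SE 0.0659, limma adjusted p = 3.36e-05). NEAT1 was at 10.6, 13.3 and 10.2 RPKM with vehicle and at 15.7, 15.9 and 15.5 RPKM with enzalutamide, which also did not overlap, a 1.38-fold rise (log2 0.47, SE 0.109, limma adjusted p = 0.00545).

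DRAIC was at 3.78, 3.81 and 3.9 RPKM with vehicle and at 2.11, 2.45 and 2.61 RPKM with enzalutamide in siControl cells. The groups lay apart, and DRAIC fell to 0.624 times vehicle (log2 -0.66, SE 0.0639, limma adjusted p = 1.75e-05). MALAT1 was at 78.9, 141 and 95.4 RPKM with vehicle and at 117, 119 and 131 RPKM with enzalutamide. Vehicle replicate 2 was above all enzalutamide libraries, and the difference did not pass (log2 0.26, 95% interval -0.07 to 0.59, limma adjusted p = 0.258). Without that library it was 0.49 (0.00378). PCGEM1, at 0.481, 0.261 and 0.387 RPKM with vehicle and 0.155, 0.226 and 0.337 RPKM with enzalutamide, overlapped between the groups and did not pass (log2 -0.5, 95% interval -0.94 to -0.06, limma adjusted p = 0.102). It passed without siControl vehicle replicate 2 (adjusted p = 0.0374) and without siControl enzalutamide replicate 3 (0.0315). Of the 7 members 2 rose and 2 fell, where 42.1% of all 20369 genes tested passed (17.7% rose, 24.4% fell).

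Side by side with the 24 h values of the ligand experiment, at a lower dose, in untransfected cells and on another sequencer, the log2 changes with enzalutamide were -0.76 there and -1.69 here for PCAT1, 0.4 and 0.62 for GAS5, 0.42 and 0.47 for NEAT1, -0.16 and -0.66 for DRAIC, 0.54 and 0.26 for MALAT1, and 0.17 and -0.5 for PCGEM1. The difference between the experiments was not tested.

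**Figure D3:**
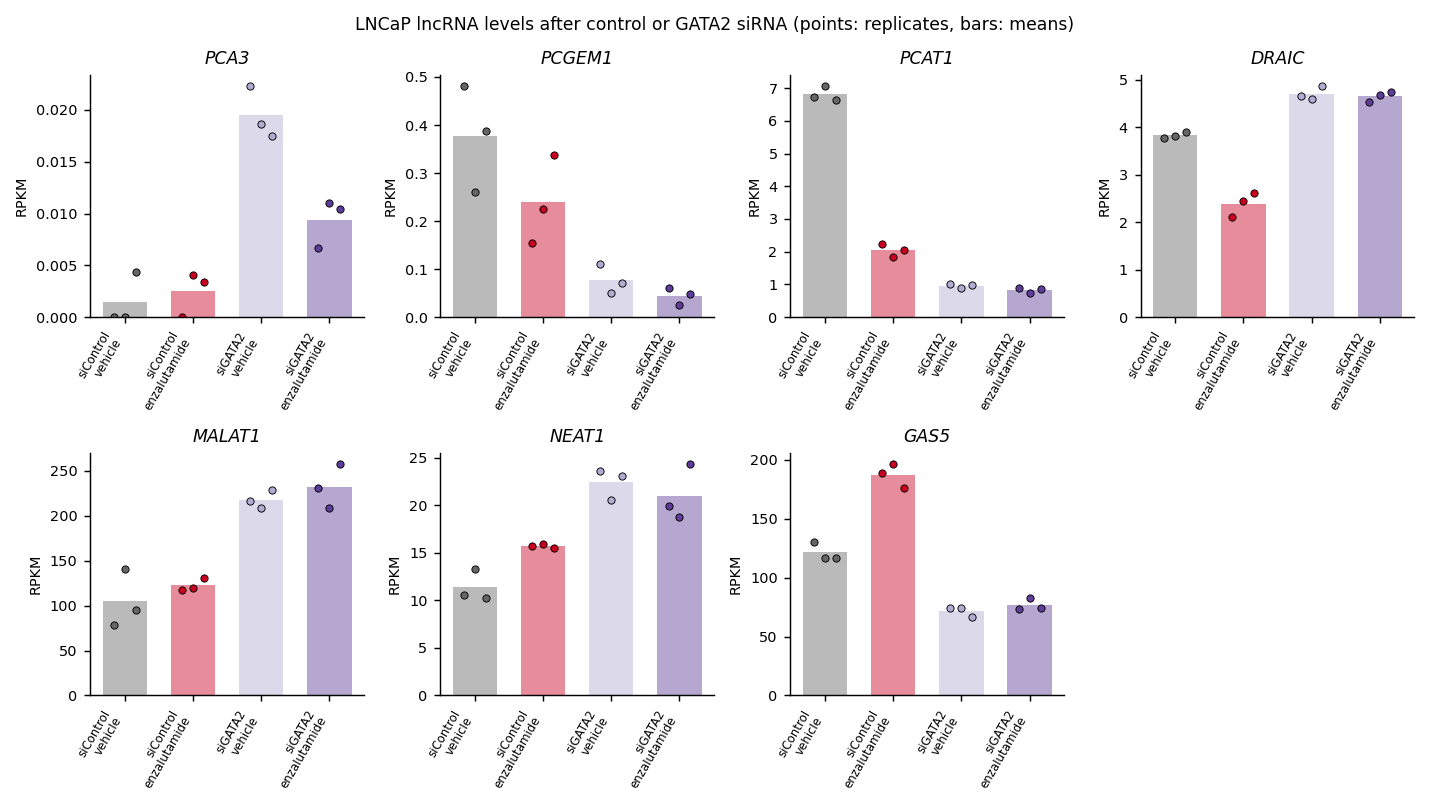
Level of each lncRNA in RPKM (vertical axes, starting at 0, a scale for each gene) in the 3 replicates (points) of each siRNA condition, with the mean as a bar. PCAT1 is near 1 RPKM or less in all 6 siGATA2 libraries, and MALAT1 and NEAT1 are higher in them than in all siControl libraries.

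GATA2 siRNA moved the members in both directions. PCAT1 was at 1.02, 0.877 and 0.993 RPKM in siGATA2 cells with vehicle and at 0.902, 0.738 and 0.863 RPKM with enzalutamide, below every siControl library. In vehicle it was 7.07-fold lower than in siControl cells (log2 -2.7, SE 0.0899, limma adjusted p = 2.71e-09) and with enzalutamide 2.46-fold lower (log2 -1.2, limma adjusted p = 9.23e-07). PCGEM1 was at 0.111, 0.051 and 0.0722 RPKM with vehicle and at 0.0608, 0.0252 and 0.0478 RPKM with enzalutamide, from 3 to 13 reads per library against 18 to 58 in siControl cells. No siGATA2 library reached the lowest siControl library. PCGEM1 was 4.83-fold lower in vehicle (log2 of RPKM + 0.1 -1.41, SE 0.224, limma adjusted p = 0.000293) and 5.36-fold lower with enzalutamide (log2 -1.2, limma adjusted p = 0.000885).

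GAS5 was at 74.2, 73.9 and 66.3 RPKM in siGATA2 cells with vehicle and at 73.7, 83.0 and 74.1 RPKM with enzalutamide, all below the siControl libraries. It was 1.7-fold lower than in siControl cells in vehicle (log2 -0.76, SE 0.0659, limma adjusted p = 2.8e-06) and 2.43-fold lower with enzalutamide (log2 -1.28, limma adjusted p = 5.5e-08). MALAT1 went the other way, at 216, 208 and 229 RPKM with vehicle and at 231, 209 and 257 RPKM with enzalutamide, above all siControl libraries. MALAT1 was 2.07-fold higher in vehicle (log2 1.09, SE 0.17, limma adjusted p = 0.000254) and 1.9-fold higher with enzalutamide (log2 0.92, limma adjusted p = 0.000833).

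NEAT1 was at 23.6, 20.6 and 23.1 RPKM in siGATA2 cells with vehicle and at 19.9, 18.8 and 24.3 RPKM with enzalutamide. These too lay above all siControl libraries, by 1.97-fold in vehicle (log2 0.98, SE 0.109, limma adjusted p = 2.07e-05) and by 1.34-fold with enzalutamide (log2 0.41, limma adjusted p = 0.00864). DRAIC was at 4.67, 4.6 and 4.87 RPKM and at 4.54, 4.69 and 4.75 RPKM in siGATA2 cells, again above the siControl libraries. It was 1.23-fold higher in vehicle (log2 0.29, SE 0.0639, limma adjusted p = 0.00256) and 1.95-fold higher with enzalutamide (log2 0.94, limma adjusted p = 4.56e-07).

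PCA3 was represented by 6, 5 and 5 reads in siGATA2 cells with vehicle against 0, 0 and 1 in siControl cells, and by 2, 3 and 3 reads against 0, 1 and 1 with enzalutamide. All siGATA2 libraries held more reads than all siControl libraries. In vehicle the ratio of the summed reads was 15.1 (exact 95% interval 2.35 to 634, counting error only), and PCA3 passed the test on log2(RPKM + 0.1), where such low levels give a small value (0.24, SE 0.0384, limma adjusted p = 0.000343). With enzalutamide the ratio was 3.73 (0.743 to 36) and the test was not passed (0.09, limma adjusted p = 0.0622). It was passed with a pseudocount of 0.01 (0.0278) and with medians of all libraries set equal (0.00612). Setting medians equal moved the log2 difference of every gene by 0.08 here, close to the 0.09 of PCA3. That second pass therefore says little about the reads of PCA3. PRUNE2 on the opposite strand was at 90.4 to 114 RPKM and was not called in these comparisons. Both the higher PCA3 in siGATA2 cells and that with DHT rest on few reads.

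All 7 members passed between siGATA2 and siControl cells in vehicle (4 higher, 3 lower), where 55.6% of all genes tested passed (24.2% higher, 31.4% lower). With enzalutamide 6 of 7 passed (3 higher, 3 lower), against 54.5% of all genes (26.3% higher, 28.1% lower). With medians of all libraries set equal, the median log2 change of all genes moved by 0.13 in vehicle, and the 7 members kept their directions and calls, with PCAT1 at -2.57 and DRAIC at 0.42. Markers of other cells were higher in sum with siGATA2, from 14.3 to 15.6 RPKM in siControl vehicle and 17.6 to 18.2 RPKM in siControl enzalutamide libraries to 24.5 to 29.4 and 25.8 to 27.8 RPKM. That sum of 12 genes was led by COL1A1 (9.62 to 16.3 RPKM) and CD68 (3.54 to 12.2 RPKM). Of the 10 tested 3 rose (COL1A1, CD68 and VWF) and 2 fell in vehicle, and 6 rose and 2 fell with medians set equal. The added rises are of markers with means of 0.0174 RPKM or less in both groups, where the shift of 0.13 was added to values near 0. They are not a result about these markers. KRT5, PTPRC, CDH5 and DCN did not exceed 0.0387 RPKM in any library and CD3E was at 0. The part of these markers in the members' differences was not tested.

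In siGATA2 cells enzalutamide changed no member past the test, where 0.412% of all genes passed with limma (0.221% rose, 0.191% fell). At an unadjusted p under 0.05 there was 1 member, PCA3 (limma adjusted p = 0.248), and 2199 of 20369 genes. The log2 differences and their 95% intervals were -0.19 (-0.36 to -0.01) for PCAT1, -0.02 (-0.14 to 0.11) for DRAIC, 0.11 (-0.02 to 0.24) for GAS5, -0.1 (-0.31 to 0.12) for NEAT1, 0.09 (-0.24 to 0.42) for MALAT1 and -0.29 (-0.73 to 0.15) for PCGEM1. The point estimates of PCAT1, DRAIC, GAS5 and NEAT1 in siControl cells lie outside these intervals. That comparison leaves out the error of the siControl estimates, and the interaction below tests the difference.

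The difference between the enzalutamide effects was tested as an interaction. It passed for 4 of 7 members, where 25.8% of all genes passed (15.0% positive, 10.8% negative). PCAT1 gave the widest, 1.5 on the log2 scale (siGATA2 minus siControl, SE 0.127, limma adjusted p = 2.51e-05), and DRAIC gave 0.65 (SE 0.0904, limma adjusted p = 0.000598): both fell less with enzalutamide in siGATA2 cells. GAS5 gave -0.52 (SE 0.0933, limma adjusted p = 0.00266) and NEAT1 -0.57 (SE 0.155, limma adjusted p = 0.0212), for a smaller or no rise. MALAT1 (-0.17, 95% interval -0.64 to 0.3), PCGEM1 (0.2, -0.42 to 0.83) and PCA3 (-0.14, -0.25 to -0.04, limma adjusted p = 0.0818) did not pass. These effects start from different levels: PCAT1 in siGATA2 vehicle (0.962 ± 0.0749 RPKM) was already under its level in siControl cells with enzalutamide (2.05 ± 0.201 RPKM), and NEAT1 in siGATA2 vehicle (22.4 ± 1.61 RPKM) was already above its level there (15.7 ± 0.217 RPKM). DRAIC and GAS5 in siGATA2 vehicle, by contrast, lay on the other side of siControl vehicle from siControl enzalutamide. The call of NEAT1 was lost without any 1 of 3 libraries (siControl vehicle, siGATA2 vehicle or siGATA2 enzalutamide replicate 1), each at -0.53 with an adjusted p of 0.0501 to 0.0519.

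**Figure D4:**
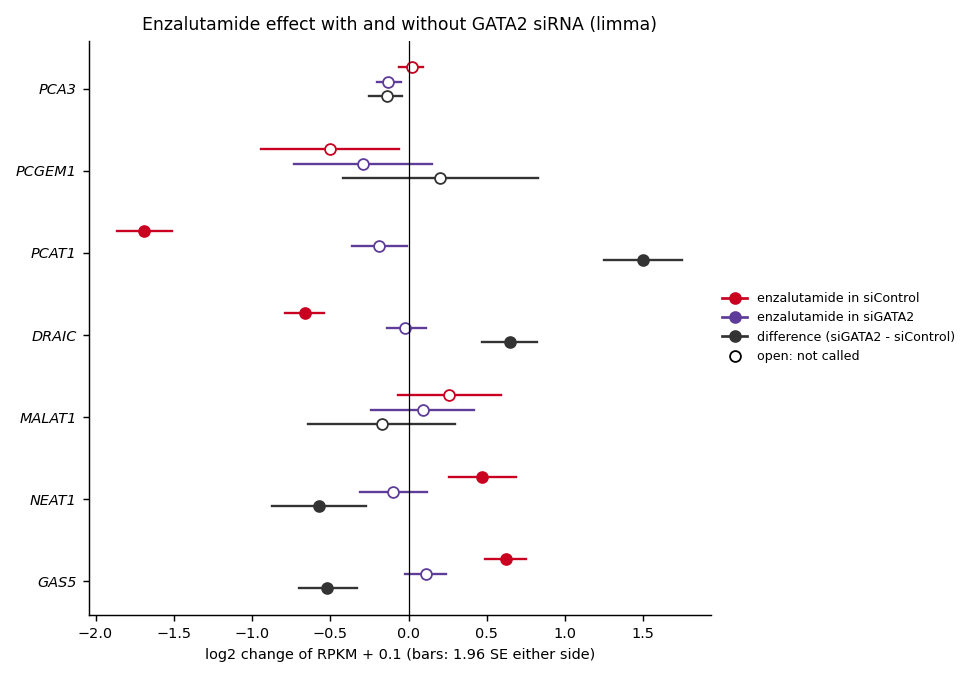
Log2 change of RPKM + 0.1 with enzalutamide (horizontal axis) in siControl cells and in siGATA2 cells, and the difference between these effects, with 95% intervals; filled points passed at a limma adjusted p under 0.05. No point of the siGATA2 cells is filled, and the differences of PCAT1 (1.5), DRAIC (0.65), NEAT1 (-0.57) and GAS5 (-0.52) are.

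Promoter sequences of 5 of the 7 members were found in RefSeq (GRCh38.p14), 250 bases before to 50 bases after an annotated start. PCAT1 and NEAT1 had no entry. GATA factors recognise a short core, searched here as AGATAA and as AGATAG, as well as TGATAA and as TGATAG, on either strand, which 8769 of 35116 promoters of this length hold (25%). The androgen response element half-site AGAACA, on either strand, stands in 14.8% of them and the full palindromic element in 0.00285%. The promoters of PCGEM1 and GAS5, which were lower in siGATA2 cells, are shown with that of DRAIC, which was higher, with matches in capitals. They are examples, and those of PCA3 and MALAT1, both higher in siGATA2 cells with vehicle, are described after them. That of PCGEM1 (chr2:192749595-192749894, plus strand) has 1 half-site and then 1 GATA core, that of GAS5 (chr1:173868996-173869295, minus strand) 1 GATA core, and that of DRAIC (chr15:69561470-69561769, plus strand) none of them. Some of these starts differ from the GENCODE gene starts given above. The windows of DRAIC and PCA3 lie inside the GENCODE genes, and that of GAS5 lies wholly upstream of its GENCODE start.
PCGEM1: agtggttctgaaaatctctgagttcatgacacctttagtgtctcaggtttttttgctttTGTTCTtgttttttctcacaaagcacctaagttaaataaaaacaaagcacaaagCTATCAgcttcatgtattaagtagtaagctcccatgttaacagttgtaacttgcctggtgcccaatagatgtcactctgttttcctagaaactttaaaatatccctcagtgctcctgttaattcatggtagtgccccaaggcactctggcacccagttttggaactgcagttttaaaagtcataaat
GAS5: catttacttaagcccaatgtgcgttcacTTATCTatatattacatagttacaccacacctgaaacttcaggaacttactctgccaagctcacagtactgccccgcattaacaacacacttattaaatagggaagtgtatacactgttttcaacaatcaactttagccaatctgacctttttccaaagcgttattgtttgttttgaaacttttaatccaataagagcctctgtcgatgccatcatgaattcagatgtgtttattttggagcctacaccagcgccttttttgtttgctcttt
DRAIC: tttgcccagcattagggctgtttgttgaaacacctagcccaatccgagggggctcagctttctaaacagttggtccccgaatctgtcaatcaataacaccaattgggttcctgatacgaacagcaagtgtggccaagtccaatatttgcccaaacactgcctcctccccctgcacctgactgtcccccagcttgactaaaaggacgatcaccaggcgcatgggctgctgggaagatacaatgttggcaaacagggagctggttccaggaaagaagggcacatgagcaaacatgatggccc
The 2 overlapping entries of PCA3, which like DRAIC was higher in siGATA2 cells with vehicle, each hold 1 GATA core. Of the 2 of MALAT1, also higher there, neither holds a GATA core and 1 holds 1 half-site. A link between these letters and the members' differences was not tested. None holds the full element. A match is a description of these letters and not a bound site.

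GAS5 is 1 of a class of noncoding host genes whose introns carry snoRNAs. Of 20 other such genes, GATA2 siRNA lowered 18 in vehicle and raised 1, with a median log2 difference of -0.861 against -0.027 over all genes. GAS5, at -0.76, lay within their range. DANCR was the lowest (-1.84, limma adjusted p = 3.16e-12), then SNHG10 (-1.51), while SNHG7 fell least (-0.36) and SNHG11 was the one that rose (0.28). With enzalutamide 18 were lower and 1 higher (median -1.124 against -0.003), from SNHG8 at -2.01 and DANCR at -1.81 to SNHG15 at -0.43 and SNHG9 at 0.31. In 21 settings with the same call rule, 17 or 18 were lower in either comparison. Of all genes 31.4% were lower and 24.2% higher in vehicle, and 28.1% lower and 26.3% higher with enzalutamide. Enzalutamide raised 9 of the 20 and lowered 4 in siControl cells (SNHG5 0.75, SNHG8 0.72, SNHG10 -0.37, SNHG15 -0.42), where GAS5 rose by 0.62. There 17.7% of all genes rose and 24.4% fell.

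**Figure D5:**
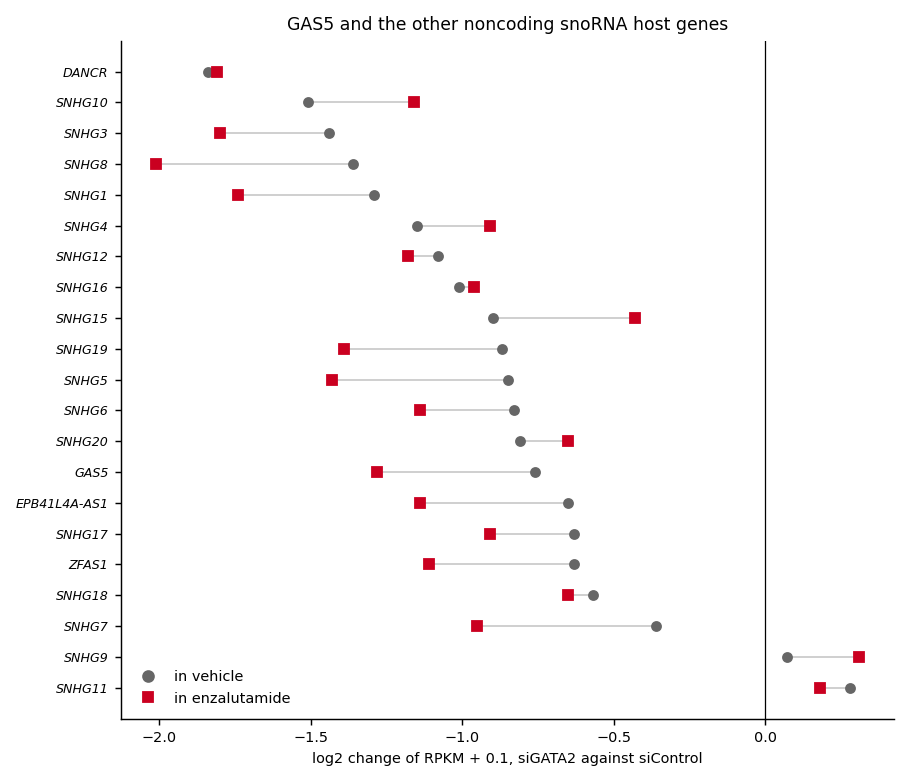
Log2 difference of RPKM + 0.1 between siGATA2 and siControl cells (horizontal axis) for GAS5 and 20 other noncoding snoRNA host genes, in vehicle (circles) and with enzalutamide (squares), ordered by the vehicle value. GAS5 lies at -0.76 and -1.28, and all but SNHG9 and SNHG11 lie below 0 in both.

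In the ligand experiment, after 24 h of enzalutamide 6 of 19 tested rose (SNHG8 0.32, SNHG19 0.26) and 1 fell (SNHG1 -0.25), and GAS5 rose by 0.4. With 24 h of DHT, where GAS5 fell by 0.2 on the log2 scale, 10 rose (SNHG12 0.74, SNHG17 0.46) and 4 fell (EPB41L4A-AS1 -0.28, SNHG3 -0.25). Of all genes 16.4% rose and 17.0% fell with 24 h of enzalutamide, and 26.9% rose and 23.2% fell with 24 h of DHT. Small RNAs of the GAS5 introns are too short and untailed to be measured well in poly(A) libraries. Of the 9 tested, 4 were lower in siGATA2 cells with vehicle (SNORD79 -1.53, SNORD80 -1.48, SNORD76 -1.22, SNORD47 -0.99), at means of 1.17 to 2.66 RPKM against 3.78 to 5.4 RPKM, and none was higher. With enzalutamide 3 were lower (SNORD80 -2.19, SNORD76 -1.76, SNORD47 -0.86). Of all genes 31.4% were lower in siGATA2 cells with vehicle and 28.1% with enzalutamide.

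NEAT1 RNA is built into paraspeckles together with proteins, and 12 genes of such proteins were followed beside it. With 24 h of enzalutamide, where NEAT1 rose by 0.42, all 12 fell (PSPC1 -0.37, HNRNPH3 -0.14, NONO -0.09, median -0.278 against 0.015 over all genes), and 8 to 12 did so under the alternatives. In siControl cells with enzalutamide, where NEAT1 rose by 0.47, 10 fell (among them SFPQ, -1.54) and 1 rose (NONO 0.1). SFPQ codes for an RNA-binding protein that paraspeckles need, and NONO for its partner. The interaction was positive in 8 (among them SFPQ, 1.24) and negative in 1 (NONO -0.11). After 24 h of DHT, where NEAT1 fell by 0.45, 4 rose (RBM14 0.32, CPSF7 0.31) and 2 fell (NONO -0.14, SFPQ -0.09). Comparing siGATA2 with siControl cells in vehicle, where NEAT1 was higher, 2 rose and 7 fell, but with medians set equal 3 rose and 4 fell. With enzalutamide 6 rose and 5 fell. Of all genes 16.4% rose and 17.0% fell with 24 h of enzalutamide, and 26.9% and 23.2% with 24 h of DHT. In siControl cells 17.7% rose and 24.4% fell with enzalutamide, and the interaction was positive in 15.0% and negative in 10.8%. Between siGATA2 and siControl cells 24.2% rose and 31.4% fell in vehicle, and 26.3% and 28.1% with enzalutamide.

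Of 12 genes for proteins of nuclear speckles, where MALAT1 gathers, 8 fell and 1 rose with 24 h of enzalutamide (SRSF7 -0.43, SRSF3 -0.42, SRRM2 0.18), where MALAT1 rose by 0.54. In siControl cells 11 fell with enzalutamide (SRSF1 -1.28, SRSF2 -1.19), where MALAT1 was at 0.26 and did not pass. With 24 h of DHT 8 rose (RNPS1 0.24, PNN 0.22) and 0 fell, and over 17 settings 4 to 9 rose. The SRSF genes code for splicing factors that bind exons. Under GATA2 siRNA in vehicle, where MALAT1 was higher, 6 rose and 4 fell against siControl cells (SRSF5 0.36, RNPS1 -0.92), or 7 and 2 with medians set equal, and with enzalutamide 11 rose and 1 fell (SRSF1 0.92, SRSF5 0.91, RNPS1 -0.8). The shares of all genes are those given for the paraspeckle genes, among them 26.9% that rose with 24 h of DHT and 26.3% that rose under GATA2 siRNA with enzalutamide.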

How the data were processed

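Poly(A) RNA of LNCaP cells was sequenced in both experiments, 12 libraries by label in each. The authors aligned reads with TopHat and quantified genes in Partek, and deposited estimated counts per gene for the ligand experiment, without normalization. The submitters' processing notes name TopHat2 2.0, Partek and hg19, and the annotation version is not given in the sources used here. For the siRNA experiment the authors deposited RPKM values, although file titles speak of counts.

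Estimated counts were rounded and fitted with edgeR 4.0.16 (quasi-likelihood, TMM factors, default filter on low counts, 15555 genes) in 1 model of 5 conditions and 10 libraries, after vehicle columns headed as the same replicate were summed. Genes not listed in a table were set to 0. RPKM values were fitted with limma 3.58.1 (variance trend) on log2(RPKM + 0.1), for 20369 genes with values above 0 in 3 or more libraries, in 1 model of 4 conditions and 12 libraries. Fold changes on that scale understate changes of low genes, and levels given as folds are ratios of group means. A gene passed at a Benjamini-Hochberg adjusted p under 0.05 over all genes tested in that comparison. Intervals of 95% are normal ones from the fitted SE. They leave out the degrees of freedom of the fits and are too narrow with 2 or 3 replicates. An interval without 0 can therefore come with an unadjusted p of 0.05 (NEAT1 at 4 h of enzalutamide, edgeR). CPM values use TMM-adjusted library sizes, except PCA3 sums, which use totals. Whole reads behind low RPKM values were recovered from their steps, within 0.05 of a read. Steps were tested on simulated data, and DESeq2 1.42.0 and other settings served as alternatives (R 4.3.3, Python 3.11.15, matplotlib 3.10.9).

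The members and gene lists were chosen with earlier results of these data known. Genes named from a list are those with the 2 largest and 2 smallest log2 changes among its members that passed, except for genes not reported here. Neighbouring genes and the genes most alike in pattern (3 per member by Pearson's r, of which the first is printed) were chosen by rule. Whether replicate numbers mark pairs was examined by the correlation of deviations from group means of same-numbered libraries. That correlation lay between -0.0956 and 0.105 for the ligands and between -0.342 and 0.28 for the siRNAs. With 2 or 3 libraries a group it cannot show or exclude pairing. Only for siGATA2 against siControl with enzalutamide were all 3 above 0.1 (0.113, 0.241 and 0.148), and there the replicate number as a block changed no member's call. Labels call replicates biological but do not say how cultures were divided, so p-values measure the spread between these libraries, which may be technical.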

Additional observations from a re-analysis of the deposited data

Results flagged for a closer look

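The effect of enzalutamide differed between siGATA2 and siControl cells, by the interaction term of limma, for PCAT1 (1.5 on the log2 scale), DRAIC (0.65), NEAT1 (-0.57) and GAS5 (-0.52). For PCAT1 and DRAIC all 3 siControl libraries with enzalutamide were below all 3 with vehicle, for NEAT1 and GAS5 all 3 were above. The sum of markers of other cells differed between these groups too, and its part was not tested.

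At 24 h the effects of DHT and enzalutamide differed, by the direct contrast of edgeR, with opposite signs against the shared vehicle libraries, for PCAT1 (DHT minus enzalutamide 1.44), MALAT1 (-0.75), NEAT1 (-0.87) and GAS5 (-0.6). In each of the 4 genes both DHT libraries lay on 1 side of both enzalutamide libraries. Both enzalutamide libraries come from 1 header set, and replicate 2 of 24 h of DHT comes from the same set.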

How the results depend on the processing

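PCAT1's falls with enzalutamide and rise with 24 h of DHT, and GAS5's 24 h changes, kept direction and call under every alternative but a rule of fold above 2 with an unadjusted p under 0.05. Whether libraries with the same replicate number were paired is not given in the labels, and the correlations above cannot settle it. With that number as a block, PCAT1 lost its call at 4 h of DHT (leaving 0 members), MALAT1 at 4 h of enzalutamide (adjusted p = 0.0504) and at 24 h of DHT (0.0566), and with enzalutamide in siGATA2 cells 29 genes passed. With DESeq2 0 members passed at 4 h and 3 at 24 h of DHT. In a fit of only the 2 groups, 1 member (PCAT1) and 781 genes passed at 4 h of enzalutamide, so DRAIC, MALAT1 and GAS5 lost their calls there. Such fits gave 0 members and 1578 genes for DHT against enzalutamide at 4 h, and 24 genes with enzalutamide in siGATA2 cells. Without a filter on low counts, a fit that also tests PCA3, 5 members passed for DHT against enzalutamide at 4 h. The fold rule left, of members and genes, 0 and 117 (enzalutamide 4 h), 0 and 449 (24 h), 0 and 186 (DHT 4 h), 0 and 911 (24 h), 0 and 358 (enzalutamide 24 h against 4 h), 1 and 706 (DHT 24 h against 4 h), 0 and 284 and 1 and 1840 (DHT against enzalutamide at 4 h and 24 h), 1 and 434 (siControl with enzalutamide), 39 genes (siGATA2 with enzalutamide), 3 and 1149 and 3 and 1177 (siGATA2 against siControl in vehicle and with enzalutamide), and 1 and 368 (interaction). Leaving out 1 library gave ranges of genes, then members, of 1058 to 3113 and 1 to 5 (enzalutamide 4 h), 3098 to 5943 and 3 to 5 (24 h), 570 to 1432 and 0 to 1 (DHT 4 h), 6332 to 8369 and 3 to 7 (24 h), 2139 to 3935 and 3 to 3 (enzalutamide 24 h against 4 h), 6020 to 8324 and 3 to 5 (DHT 24 h against 4 h), 1256 to 2570 and 0 to 5, and 8603 to 10526 and 5 to 7 (DHT against enzalutamide at 4 h and 24 h), 7525 to 8820 and 4 to 6 (siControl with enzalutamide), 27 to 93 and 0 to 0 (siGATA2 with enzalutamide), 10602 to 11314 and 7 to 7, and 10359 to 11271 and 6 to 6 (siGATA2 against siControl), and 4279 to 5804 and 3 to 4 (interaction). Only differences near 0 changed sign: NEAT1 at 4 h of DHT was -0.06 with 4 vehicle columns as samples, and the interaction of PCGEM1 was -0.03 with a pseudocount of 0.01. Without 1 library the log2 values ranged, at 4 h of DHT, from -0.2 to 0.11 (MALAT1), -0.14 to 0.19 (NEAT1), -0.1 to 0.01 (DRAIC) and 0.0 to 0.03 (GAS5), for PCGEM1 from -0.01 to 0.38 (enzalutamide 4 h), -0.22 to 0.17 (enzalutamide 24 h against 4 h) and -0.19 to 0.25 (DHT against enzalutamide at 4 h), for PCAT1 from -0.17 to 0.03 (enzalutamide 24 h against 4 h), for DRAIC from -0.03 to 0.01 (siGATA2 with enzalutamide), and for MALAT1 from -0.4 to 0.02 (interaction). Where the ligand ranges go above the 6 members tested in the main fit, they count PCA3 too. PCA3 can pass the filter on low counts only through the DHT libraries in which it is high, so its calls there are no support. Fits that leave 1 library in a group assume that it varies like the others. The cause of these changes was not tested. With 2 or 3 replicates a group, and at most 18 counts in a group for PCA3, small differences were not detectable at this depth.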

Other observations

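Of 28 other lncRNAs linked to prostate cancer, 24 were in the tables. With 24 h of DHT 3 of the 17 tested rose and 3 fell, and over 17 settings 3 to 4 rose and 0 to 4 fell. Of all genes tested 26.9% rose and 23.2% fell, so these counts are not a result about this list. LINC00844, an androgen-induced RNA, was at 0.548 CPM against 0.0165 CPM with vehicle, and ARLNC1 at 1.48 against 0.356 CPM (log2 2.13, edgeR adjusted p = 4.1e-05). The vehicle value of LINC00844 is below the 0.0303 CPM that 3 counts make in the vehicle group. LINC00844 could thus pass the filter on low counts only through conditions in which it was higher, and its call is no support. TRPM2-AS (-0.31) and TUG1 (-0.16) were among those that fell. CTBP1-AS, antisense to a corepressor gene, rose at 4 h of DHT (log2 1.83, edgeR adjusted p = 2.83e-06), when PCAT1 was lower, and fell with 24 h of enzalutamide (-0.58), where over the settings 0 to 3 of the list rose and 0 to 1 fell. There 16.4% of all genes rose and 17.0% fell. With GATA2 siRNA in vehicle 5 of 21 rose (UCA1 1.08, PCAT29 0.51) and 4 fell (PCAT19 -0.75, TUG1 -0.51), but 8 rose and 3 fell with medians set equal. In the main fit 24.2% of all genes rose and 31.4% fell.

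Of the protein-coding genes next to the members, TMEFF2 beside PCGEM1 was lower in siGATA2 cells with vehicle (log2 -1.42, limma adjusted p = 2.72e-10), as PCGEM1 was, and rose with 24 h of DHT (0.46, edgeR adjusted p = 8.65e-08). POU5F1B beside PCAT1 was lower in siGATA2 cells (-1.55, limma adjusted p = 2.68e-06) and was not called with DHT at 24 h (-0.68, edgeR adjusted p = 0.0525). GCNT1 beside PCA3 rose with 24 h of DHT (0.83, edgeR adjusted p = 3.78e-08) and was higher in siGATA2 cells with vehicle (0.55, limma adjusted p = 6.34e-08). TLE3 beside DRAIC fell with 24 h of DHT (-0.53, edgeR adjusted p = 9.09e-08). TALAM1, antisense to MALAT1, rose with 24 h of enzalutamide (1.02, edgeR adjusted p = 0.000522) at 2.12 to 4.63 CPM, a level at which reads of MALAT1 cannot be told apart from its own.

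The genes whose log2 level followed a member most closely are given as a description, with Pearson's r over 10 ligand or 12 siRNA libraries that share conditions. They were NXT1 (0.992) for PCAT1, LRRC75A-AS1 (0.991) for GAS5, CSAD (0.986) for NEAT1, GOLGA8B (0.97) for MALAT1, PPP1R12B (0.966) for PCGEM1 and MEX3A (0.947) for DRAIC in the ligand experiment. In the siRNA experiment they were SLC39A8 (0.998) for PCAT1, HLA-E (0.997) for GAS5, TMED2 (0.983) for DRAIC, ZNF615 (0.983) for MALAT1 and HDDC2 (0.982) for NEAT1. LRRC75A-AS1 is itself a snoRNA host gene outside the list used above.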
